A study of Homo sapiens with 16 samples.

Results

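The genes described here encode the MHC class II molecules of the human cell surface and the proteins that assemble and load them: HLA-DRA, HLA-DRB1, HLA-DPA1, HLA-DPB1, HLA-DQA1, HLA-DQB1, HLA-DMA, HLA-DMB, CD74 and CIITA. The members are all probe sets whose platform symbol is, or includes, 1 of these 10 genes, which gave 16 of the 12626 probe sets of the array. Of the 16, 14 carried 1 symbol and 2 carried several. They were read in U937, an established human leukaemia line of monocytic kind, which held a construct for AML1-ETO, a fusion protein of acute myeloid leukaemia, under a tetracycline promoter. Total RNA went to 16 Affymetrix U95Av2 arrays in 8 groups of 2: AML1-ETO induced cells at 12, 24, 48 and 72 h, and control cells of the same line at 0, 24, 48 and 72 h. Controls at 12 h were not analysed here, so induced cells of 12 h were set against controls of 0 h, and time and induction cannot be told apart in that comparison. The labels do not say whether the line was a single clone, how tetracycline was applied, or whether replicates were separate cultures. The p-values therefore measure at most the spread between these arrays, which may be technical.

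An MHC class II molecule is a pair of an alpha and a beta chain, and the isotypes DR, DP and DQ each have their own pair of genes. In the endoplasmic reticulum the invariant chain, the product of CD74, occupies the groove of the new pair and leads it to endosomes. There proteases trim the invariant chain to the fragment CLIP, and HLA-DM, a pair of the HLA-DMA and HLA-DMB products, exchanges CLIP for peptides of the cell's surroundings. CIITA is a coactivator that does not itself bind DNA: it is recruited to the class II, DM and CD74 promoters by RFX, CREB and NF-Y, and interferon gamma induces it in monocytic cells.

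The values are linear array intensities scaled by the authors to the same array mean, so each is relative to the whole array, and fewer cells with an RNA and less of it per cell cannot be told apart. Values under 135.6, the 40th percentile of all values, were set to that floor before log2 was taken. Testing required that 2 or more of the 16 arrays exceed 292.7, the median of all values, and called at a limma adjusted p under 0.05 over the 7824 probe sets tested. Of the 16 class II probe sets, 7 were tested. RUNX1T1, the gene of the ETO part of the fusion, read -399 to 91.4 in controls by its 1 tested probe set and was under the floor on both induced arrays of 12 h. It read 1592 and -47.5 in induced cells at 24 h, 8650 and 3974 at 48 h, and 10603 and 8355 at 72 h. Its untested probe sets did not show this rise: 35639_at and 35640_at were under the floor on all 16 arrays. The remaining probe set, 35638_at, read 207 and 207 in induced cells at 48 h, against -158 and 165 in controls. At 72 h it read 155 and -52.0 in induced cells, against 352 and 132 in controls. Of 12 monocyte and myeloid markers on the array, 6 were above the floor on at least 14 arrays (CD4, LYZ, ELANE, AZU1, FCER1G and SPI1), while CSF1R and ITGAM were above it on none. Among 9 B cell markers, CD22 and CD79A were above the floor on at least 14 arrays, and PAX5 and CD79B on none. Markers of other cells were above the floor on at least 14 arrays as well: 3 of 10 for T and NK cells, 4 of 8 for dendritic cells, 2 of 6 for erythroid cells and megakaryocytes, and 2 of 8 for epithelium and fibroblasts, KRT8 among them. A value above the floor therefore did not separate cell types here. The median log2 difference of all tested probe sets was 0.09 at 48 h and 0.18 at 72 h, and it was -0.07 and -0.13 after the arrays were scaled to the same median. Calls over the whole array were 820 higher and 679 lower at 48 h, or 423 and 616 after that scaling. At 72 h they were 1258 higher and 1090 lower, or 698 and 1328 after it.

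HLA-DPA1, the alpha chain of DP, was the 1 called higher of the 7 class II probe sets tested, at 48 and at 72 h. Over all tested probe sets 10.5% and 16.1% were called higher. Members that were untested or not called are not thereby shown to be unchanged. HLA-DPA1 read 397 and 384 in induced cells at 48 h, against -432 and 59.5 in controls. At 72 h it read 547 and 513 in induced cells, against 82.8 and 30.5 in controls. Both induced arrays lay above both controls at each of these times, and all 4 of those controls were under the floor. The rise was therefore at least 2.88-fold at 48 h (log2 1.53, SE 0.32, adjusted p = 0.00473) and at least 3.90-fold at 72 h (log2 1.97, SE 0.32, adjusted p = 0.000416). These bounds follow the floor. With the floor at the median of all values, 292.7, the log2 difference was 0.42 at 48 h (adjusted p = 0.0148). At 72 h it was 0.86 (adjusted p = 6.60e-05). Flooring also set all 4 of those controls to the same value. The SE and p-values therefore leave out the spread between them, such as that of -432 and 59.5 at 48 h.

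At 12 and 24 h HLA-DPA1 was not higher in the arrays labelled induced, and RUNX1T1 was under the floor on 3 of those 4 arrays. It read 48.1 and 59.4 in induced cells at 12 h, against 86.6 and 102 in controls at 0 h, all under the floor. At 24 h it read 106 and 74.5 in induced cells, under the floor, against 184 and 162 in controls. The 24 h difference did not pass the test (log2 -0.35, SE 0.32, adjusted p = 0.997), although the induced arrays lay below the controls, as they did for 13.7% of tested probe sets. The effect differed between 24, 48 and 72 h (F test adjusted p = 0.00875), with the 72 h effect above the 24 h effect by log2 2.32. Such a difference between times was called for 10.9% of tested probe sets.

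HLA-DPA1 was the 1 member called of 7 tested at 48 h, where 19.2% of all tested probe sets were called (10.5% higher and 8.68% lower). It was again the 1 called at 72 h, where the share was 30% (16.1% higher and 13.9% lower). In the average over 24, 48 and 72 h it was the 1 called as well (log2 1.05, SE 0.18, adjusted p = 0.000687), beside 31.9% of all tested probe sets (18.5% higher and 13.4% lower). After median scaling the average gave 828 higher and 1321 lower calls, against 1451 higher and 1048 lower as deposited. Both induced arrays lay above both controls for 1 of 7 members at 48 h and 3 at 72 h, against 35.8% and 38.8% of all tested probe sets. They lay below them for 0 members at 48 h and 1 at 72 h, against 26.2% and 26.7%. At 24 h they lay above for 0 members and below for 4, against 20.5% and 13.7%, and at 12 h against 0 h above for 0 and below for 3, against 16.2% and 31.6%. Its 4 arrays above the median of all values were the induced arrays of 48 and 72 h, so it passed the filter only through the arrays where it was high. Without the filter it was called as well (adjusted p = 2.03e-06 at 48 h and 1.15e-07 at 72 h, among 12559 probe sets). The floored values and log2 differences were the same in that fit, so its smaller adjusted p-values are no separate support. On a scale that keeps values under the floor apart, the asinh scale, the 48 h call held (difference 3.61 on that scale, adjusted p = 0.0131). The controls behind it read -432 and 59.5, and how far the first sets that difference was not tested. The calls at 72 h and between times did not hold there (adjusted p = 0.0574 and 0.101).

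**Figure D1:**
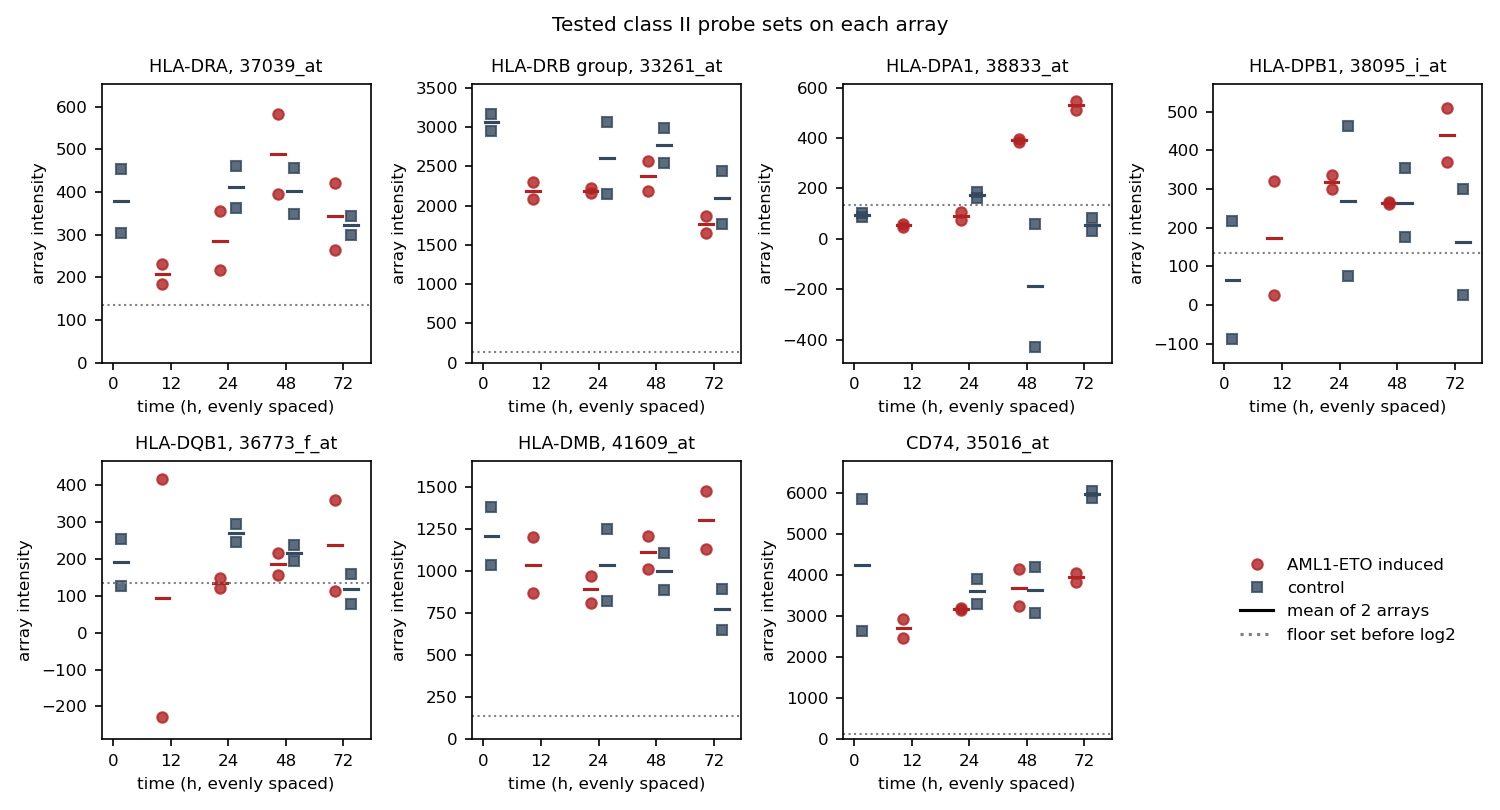
Array intensity (y axis, linear) of the 7 tested class II probe sets at each time in hours (x axis, evenly spaced), with 1 point per array, AML1-ETO induced as red circles to the left and control as dark squares to the right, a bar at the mean of 2 arrays and the floor as a dotted line. HLA-DPA1 reads 384 to 547 on the 4 induced arrays of 48 and 72 h, above all 8 controls, while CD74 at 72 h reads 4036 and 3835 in induced cells and 5876 and 6044 in controls.

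Promoters of HLA-DPA1, its partner HLA-DPB1 and 3 other tested members are shown, since class II genes are known to share an upstream X and Y box module. RefSeq's promoter table (GRCh38.p14) held 9 promoters of 8 members, with 2 for HLA-DPA1. The 130 bases before the start site are printed 5′ to 3′ on the gene's strand, with ATTGG or its reverse complement CCAAT (the core that NF-Y binds in the Y box), GCAAC (found in X boxes, the site of RFX) and GATGA in capitals. GATGA and GCAAC were chosen after reading these windows, and no matches overlap.
HLA-DPA1, chr6:33073650-33073779, minus strand: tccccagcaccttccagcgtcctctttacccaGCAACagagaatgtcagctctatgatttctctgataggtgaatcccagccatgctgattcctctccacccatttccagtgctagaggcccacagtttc
HLA-DPB1, chr6:33075860-33075989, plus strand: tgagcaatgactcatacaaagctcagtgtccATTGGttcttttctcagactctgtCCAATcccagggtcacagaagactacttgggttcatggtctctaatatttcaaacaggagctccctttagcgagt
HLA-DRB1, chr6:32589849-32589978, minus strand: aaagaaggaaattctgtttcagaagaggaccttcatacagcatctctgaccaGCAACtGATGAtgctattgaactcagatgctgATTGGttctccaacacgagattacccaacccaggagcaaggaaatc
HLA-DMB, chr6:32941029-32941158, minus strand: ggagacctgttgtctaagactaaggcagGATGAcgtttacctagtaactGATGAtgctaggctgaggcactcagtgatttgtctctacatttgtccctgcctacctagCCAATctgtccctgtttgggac
CD74, chr5:150412911-150413040, minus strand: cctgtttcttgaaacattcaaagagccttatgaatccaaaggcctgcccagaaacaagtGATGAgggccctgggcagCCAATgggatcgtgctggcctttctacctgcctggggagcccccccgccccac

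HLA-DPA1 and HLA-DPB1 are neighbours that are read in opposite directions, and the 2 start sites of their printed windows are 2341 bases apart. The other HLA-DPA1 start site and its window, not printed, lie within the HLA-DPB1 gene, so the annotated genes overlap. ATTGG on either strand was in the windows of 7 of the 8 genes and in neither window of HLA-DPA1. It was in 21.5% of all 35116 promoters of that table over the same window. In the printed HLA-DPA1 window, GCAAC lies at positions -98 to -94 from the start site. In HLA-DRB1, GCAAC lies at -78 to -74, GATGA at -72 to -68 and ATTGG at -46 to -42. GCAAC was in the windows of 2 of the 8 genes and GATGA in those of 5. Over all promoters the shares were 16.3% and 15.6%. Both were chosen after reading these windows, so their counts cannot be judged against those shares. TGTGGT on either strand, a core that RUNX proteins bind, was in none of the 9 windows, against 5.71% of all promoters. At so low a share, 9 windows are too few to show a lack of this core. These are matches of letters and not measured sites.

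HLA-DPB1, the beta chain that pairs with the HLA-DPA1 product, did not pass the test at any time. Its tested probe set, 38095_i_at, read 369 and 509.6 in induced cells at 72 h, against 25.7 and 300.2 in controls. The induced arrays lay above the controls, as for 38.8% of tested probe sets, but the controls were far apart (log2 1.10, SE 0.63, adjusted p = 0.215, 95% interval -0.26 to 2.47). At 48 h it read 267 and 261 in induced cells, between the 176 and 354 of the controls. At 24 h it read 301 and 336 in induced cells, again between the 76.5 and 464 of the controls. The other HLA-DPB1 probe set, 38096_f_at, was under the floor on all 16 arrays, with values from -193 to 123.

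HLA-DRA, the alpha chain of DR, was above the floor on all 16 arrays, from 184 to 582. It read 217 and 355 in induced cells at 24 h, against 363 and 461 in controls. At 48 h it read 582 and 394 in induced cells, against 456 and 349 in controls. At 72 h it read 265 and 421 in induced cells, against 345 and 299 in controls. Induced cells of 12 h read 231 and 184, against 304 and 455 in controls of 0 h. Induced cells were thus below controls at 12 and 24 h, as for 31.6% and 13.7% of tested probe sets, and overlapped them later. No difference passed the test (log2 -0.85, -0.56, 0.26 and 0.06 at 12, 24, 48 and 72 h, SE 0.43, adjusted p at least 0.289). The sign at 72 h turned after quantile normalization and after median scaling (log2 -0.26 and -0.29). The 95% interval at 72 h, -0.87 to 0.99, leaves room for a change of nearly 2-fold either way.

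The DR beta chain was read by 33261_at, which carries the symbols HLA-DRB1, HLA-DRB3 and HLA-DRB5, so these near-identical genes cannot be told apart. It was far above the floor throughout, from 1648 to 3165. It read 2297 and 2081 in induced cells at 12 h, against 2956 and 3165 in controls at 0 h, without overlap. That difference did not pass the test (log2 -0.48, SE 0.22, adjusted p = 0.224), and 31.6% of tested probe sets lay below the controls in the same way. At 72 h the probe set read 1648 and 1873 in induced cells, against 2438 and 1761 in controls (log2 -0.24, SE 0.22, adjusted p = 0.442). Both control arrays of 72 h lay under both of 0 h, a difference that did not pass the test (log2 -0.56, SE 0.22, adjusted p = 0.594). Set against controls of 0 h in place of those of 72 h, the induced cells of 72 h were called lower (log2 -0.80, adjusted p = 0.0133). The second DR probe set, 41723_s_at, carries 6 symbols, HLA-DRB1 and HLA-DQB1 among them, and was at or under the floor on 13 of 16 arrays.

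For HLA-DQB1, the beta chain of DQ, 1 of 4 probe sets with that symbol alone passed the filter. This probe set, 36773_f_at, read 148 and 121 in induced cells at 24 h, against 248 and 296 in controls. At 72 h it read 113 and 362 in induced cells, against 77.5 and 160.0 in controls, which overlap. Neither difference passed the test (log2 -0.94 and 0.59, SE 0.57, adjusted p = 0.991 and 0.474). At 12 h its 2 induced arrays read -229 and 416, the widest spread of the probe set. The other 3 HLA-DQB1 probe sets were untested, and 2 of them were under the floor on all 16 arrays. HLA-DQA1, the alpha chain of DQ, read from -413 to 212 and was above the floor on 2 arrays.

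**Figure D2:**
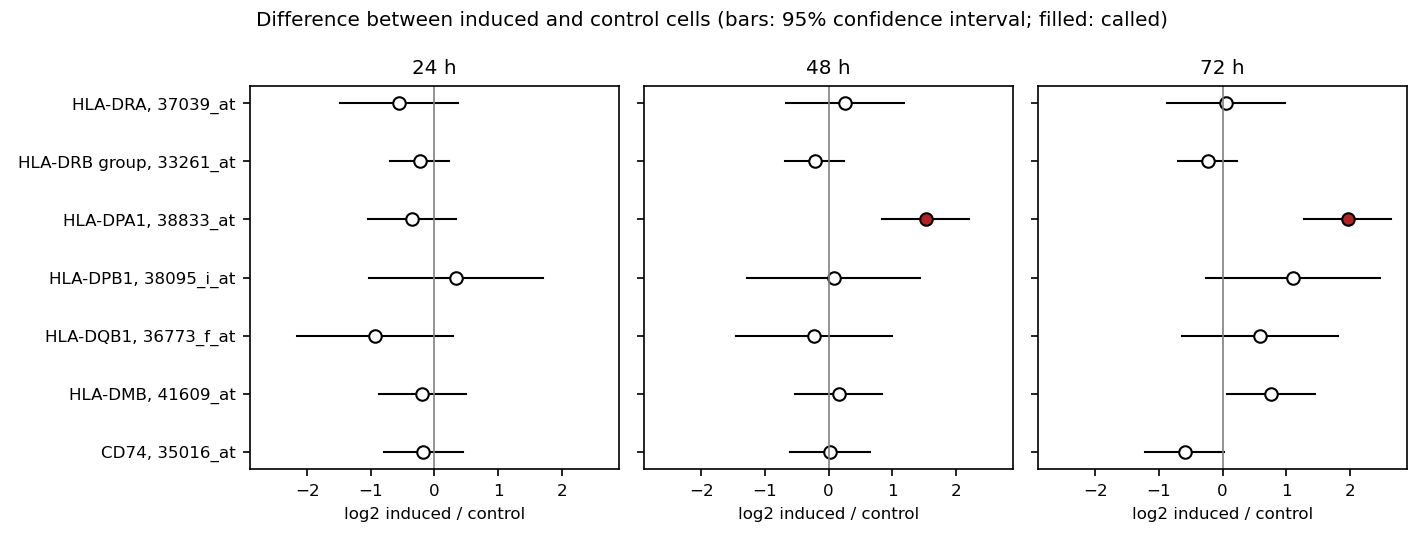
Log2 difference between induced and control cells (x axis) for the 7 tested class II probe sets (rows) at 24, 48 and 72 h, with bars for the 95% confidence interval from the fit over 16 arrays and filled points for calls. HLA-DPA1 at 48 h (1.53) and at 72 h (1.97) is called, and the intervals of CD74 and HLA-DPB1 at 72 h include 0.

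HLA-DMB, the beta chain of the peptide exchanger HLA-DM, was above the floor on all 16 arrays. At 72 h it read 1131 and 1476 in induced cells, against 892 and 651 in controls. The induced arrays were above the controls, yet the difference missed the threshold (log2 0.76, SE 0.32, unadjusted p = 0.0320, adjusted p = 0.0893). Both controls of 72 h lay under both of 0 h, a difference that did not pass the test (log2 -0.65, SE 0.32, adjusted p = 0.680). The induced cells of 72 h averaged 1303, against 1206 in controls of 0 h. At 48 h it read 1013 and 1208 in induced cells, against 1108 and 888 in controls, and at 24 h 808 and 970.3 against 818 and 1249. Those groups overlap, and so do the induced cells of 12 h, with 868 and 1202, and the controls of 0 h, with 1034 and 1378. HLA-DMA, the alpha chain of HLA-DM, was under the floor on all 16 arrays, with values from -708 to 134.

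CD74, the invariant chain, read from 2458 to 6044. In induced cells it read 2458 and 2934 at 12 h, 3202 and 3144 at 24 h, 4135 and 3240 at 48 h, and 4036 and 3835 at 72 h. In controls it read 2627 and 5853 at 0 h, 3902 and 3286 at 24 h, 3079 and 4200 at 48 h, and 5876 and 6044 at 72 h. The induced arrays lay below the controls at 24 and 72 h and overlapped them at 48 h. At 72 h, CD74 averaged 3936 ± 142 in induced cells and 5960 ± 119 in controls (SD, n = 2 each).

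That 72 h difference of CD74 did not pass the test (log2 -0.60, SE 0.29, adjusted p = 0.141), in a fit whose spread takes in the pair of controls at 0 h, 2627 and 5853. The 0 h arrays do not enter this difference, which stayed at log2 -0.60 without replicate 1 or without replicate 2 of the 0 h controls. Leaving out either array takes the spread of that pair out of the fit, so a call made that way is no separate support. CD74 was called lower with the 4 arrays of 72 h alone (adjusted p = 0.0323), a fit that also lacks that pair. It was called lower after median scaling as well (log2 -0.95, adjusted p = 0.0276). With controls of 0 h in place of those of 72 h, the difference was gone (log2 0.00488). At 12 h the induced cells were at log2 -0.55 against 0 h (SE 0.29, adjusted p = 0.311). This became -1.12 without replicate 1 of the 0 h controls and 0.032 without replicate 2, so its sign depends on which control is kept.

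No class II member was called at 24 h, at 12 h against 0 h, or among later controls against 0 h, by limma. At 24 h, 0 of all tested probe sets were called (0%), and an unadjusted p under 0.05 was reached by 0 of 7 members, against 5.07% of all tested probe sets. At 12 h against 0 h, 3.28% were called (91 higher and 166 lower, or 22 and 20 after median scaling), and an unadjusted p under 0.05 was reached by 1 of 7 members, the HLA-DRB probe set, against 20.7% of all. The controls of 24, 48 and 72 h against 0 h gave calls for 0.498%, 0.0128% and 0.0383% of tested probe sets. An unadjusted p under 0.05 was reached there by 0, 0 and 1 of 7 members, against 13.4%, 8.95% and 7.43% of all, and the 1 was the HLA-DRB probe set at 72 h.

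CIITA was read by 2 probe sets, and neither was tested, since 1 array of 16 exceeded the median of all values in each. By 35616_at it read 212 and 429 in induced cells at 72 h, against -9.66 and 164 in controls, and 202 and 216 at 48 h, against 127 and 191. By 41511_at it read 157 and 129 in induced cells at 72 h, against 392 and 165 in controls. The first probe set thus put the induced arrays above the controls at 72 h and the second below them. Without the filter on low values, neither difference passed the test (adjusted p = 0.0662 and 0.263).

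**Figure D3:**
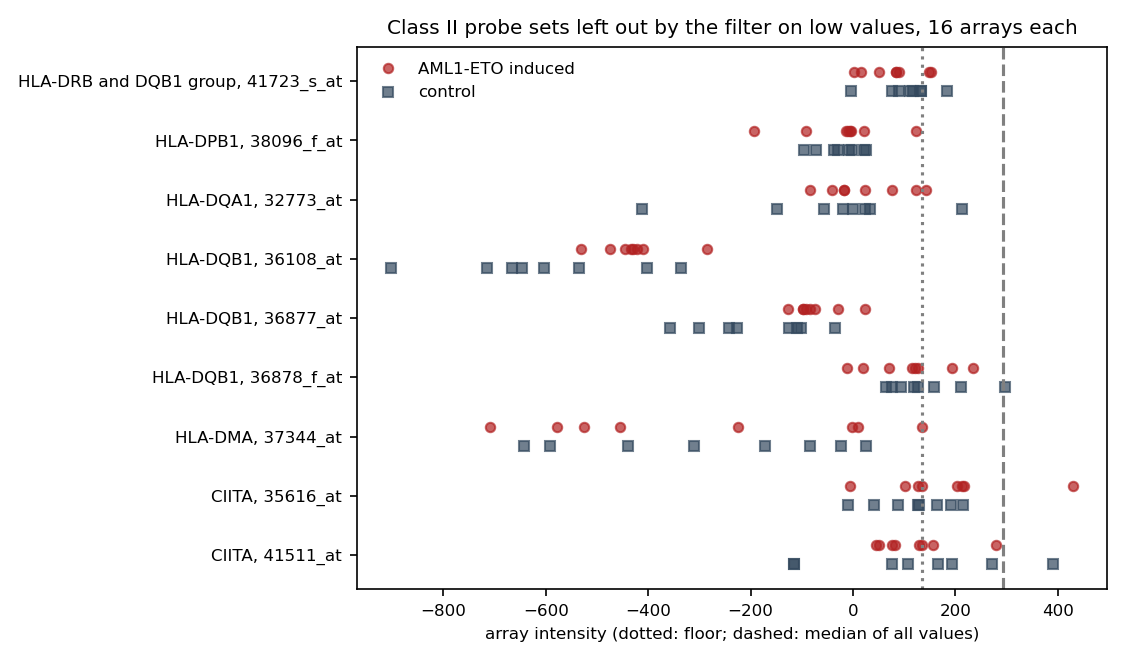
Array intensity (x axis, linear) of the 9 class II probe sets left out by the filter on low values (rows), with 1 point per array, AML1-ETO induced as red circles above and control as dark squares below, the floor as a dotted line and the median of all values as a dashed line. HLA-DMA, 36108_at and 36877_at of HLA-DQB1, and 38096_f_at of HLA-DPB1 stay under the floor on all arrays, and 3 arrays lie past the median: an induced array of CIITA at 429, a control array of CIITA at 392 and a control array of HLA-DQB1 at 296.

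The genes around class II presentation were counted over 6 lists of 56 genes, of which 41 were tested, each by its tested probe set of highest mean. At 48 h, 7 were higher and 6 lower, against 10.5% higher and 8.68% lower of all tested probe sets. At 72 h, 10 were higher and 7 lower, against 16.1% and 13.9%. These whole-array shares are those to read each list's count against. After median scaling these counts were 4 higher and 6 lower at 48 h and 4 higher and 7 lower at 72 h. At 24 h none of the 41 was called, and at 12 h against 0 h 1 was lower. The other class II genes gave 0 calls among 3 tested at every time, though HLA-DOA, the alpha chain of HLA-DO, was called lower at 48 h after quantile normalization. As deposited it was at log2 -1.40 at 48 h (SE 0.53, adjusted p = 0.0851), with 1 induced array at the floor. A second tested probe set of HLA-DOA was not called in that fit. HLA-DOB, the beta chain of this HLA-DM inhibitor, averaged 458 ± 62.0 in induced cells and 480 ± 11.6 in controls at 72 h (SD, n = 2 each).

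The median log2 difference at 72 h was 0.18 over all tested probe sets. By list it was 0.45 for the other class II genes, 0.87 for promoter factors, 0.73 for genes that govern CIITA, 0.21 for the endosomal list, 0.61 for costimulation and adhesion, and -0.86 for MIF and its receptors. After median scaling that of the promoter factors was 0.52, against -0.13 over all.

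Among the factors that act at class II promoters, binding factors and coactivators together, 2 of 8 were higher at 48 h, against 10.5% of all tested probe sets. At 72 h 3 were higher, against 16.1%, and none was lower at either time. RFX5, a subunit of the RFX complex at the X box, averaged 1808 ± 44.4 in induced cells and 778 ± 12.3 in controls at 72 h (SD, n = 2 each). It rose 2.32-fold (adjusted p = 0.0141). NFYC, a subunit of NF-Y, rose 1.77-fold at 72 h (adjusted p = 0.0345). The acetyltransferase gene EP300, a coactivator of many promoters, rose 5.29-fold (adjusted p = 0.000430). RFXAP, NFYA, NFYB, CREB1 and CREBBP were tested and not called at 48 or 72 h. After median scaling, RFX5 and NFYC were no longer called at 72 h and NFYB was called lower, while RFX5 at 48 h and EP300 at both times remained higher.

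Genes that govern CIITA went both ways, with 2 of 8 higher and 3 lower at 48 h and 3 of 8 higher and 3 lower at 72 h. The receptor of interferon gamma has 2 chains, and their genes moved apart. IFNGR1 averaged 3041 ± 805 in induced cells and 1530 ± 11.4 in controls at 72 h (SD, n = 2 each), a 1.95-fold rise (adjusted p = 0.00992). IFNGR2 averaged 349 ± 66.8 in induced cells and 2831 ± 741 in controls at 72 h (SD, n = 2 each), with a log2 difference of -3.01 (SE 0.29, adjusted p = 5.92e-06). JAK1, the kinase bound to IFNGR1, rose 2.23-fold at 72 h (adjusted p = 0.000444), and IRF2, a factor that acts on the CIITA promoter, 1.67-fold (adjusted p = 0.0150). The myeloid factor genes IRF8 and SPI1 were lower at 72 h. IRF8 was at least 51.4-fold lower, with 1 of 2 induced arrays under the floor (adjusted p = 4.93e-07), and SPI1 differed by log2 -3.42 (adjusted p = 1.02e-05). JAK2 and IRF1 did not pass the test at either time. After median scaling, IFNGR1, JAK1 and IRF2 were not called at either time, and IFNGR2, IRF8 and SPI1 remained lower.

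In the endosomal list, 1 of 11 genes was higher and 1 lower at both 48 and 72 h. CSTB, the protease inhibitor cystatin B, rose 2.32-fold at 72 h (adjusted p = 4.18e-05). CTSC, the dipeptidyl peptidase that activates granule proteases, had a log2 difference of -0.96 at 48 h (adjusted p = 0.000925) and -0.48 at 72 h (adjusted p = 0.0328). Cathepsins B, D, H, L and Z, the lysosomal membrane genes LAMP1, LAMP2 and CD63, and CST3 were not called at 48 or 72 h. Of 7 costimulation and adhesion genes, 2 were higher at 48 h and 3 at 72 h, and none was lower. ICAM1, an adhesion ligand for T cells, averaged 2899 ± 1284 in induced cells and 195 ± 27.3 in controls at 72 h (SD, n = 2 each), with all 4 arrays above the floor, and rose 14.2-fold (adjusted p = 9.94e-06). CD1D, which presents lipids, rose 5.46-fold (adjusted p = 0.000382), and CD83, a maturation marker of dendritic cells, 2.36-fold (adjusted p = 0.00843). CD40, CD58, CD86 and CD1C were not called at 72 h by the probe set used. After median scaling, the calls of CD83 at 72 h and CSTB at 48 h were lost, and after quantile normalization that of CTSC at 72 h.

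CD74 is also the surface receptor of the cytokine MIF, together with CD44 and the chemokine receptors CXCR2 and CXCR4. Of these 4 genes, 2 were lower at 48 h, against 8.68% of all tested probe sets, and 3 at 72 h, against 13.9%, and none was higher. At 72 h, CXCR4 averaged 722 ± 3.48 in induced cells and 5867 ± 501 in controls (SD, n = 2 each), with a log2 difference of -3.02 (SE 0.18, adjusted p = 2.10e-07). CD44 averaged 2724 ± 195 in induced cells and 6032 ± 827 in controls (log2 -1.14, SE 0.19, adjusted p = 0.000575). MIF itself differed by log2 -0.58 (SE 0.19, adjusted p = 0.0379), a call lost after median scaling, and CXCR2 was not called.

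**Figure D4:**
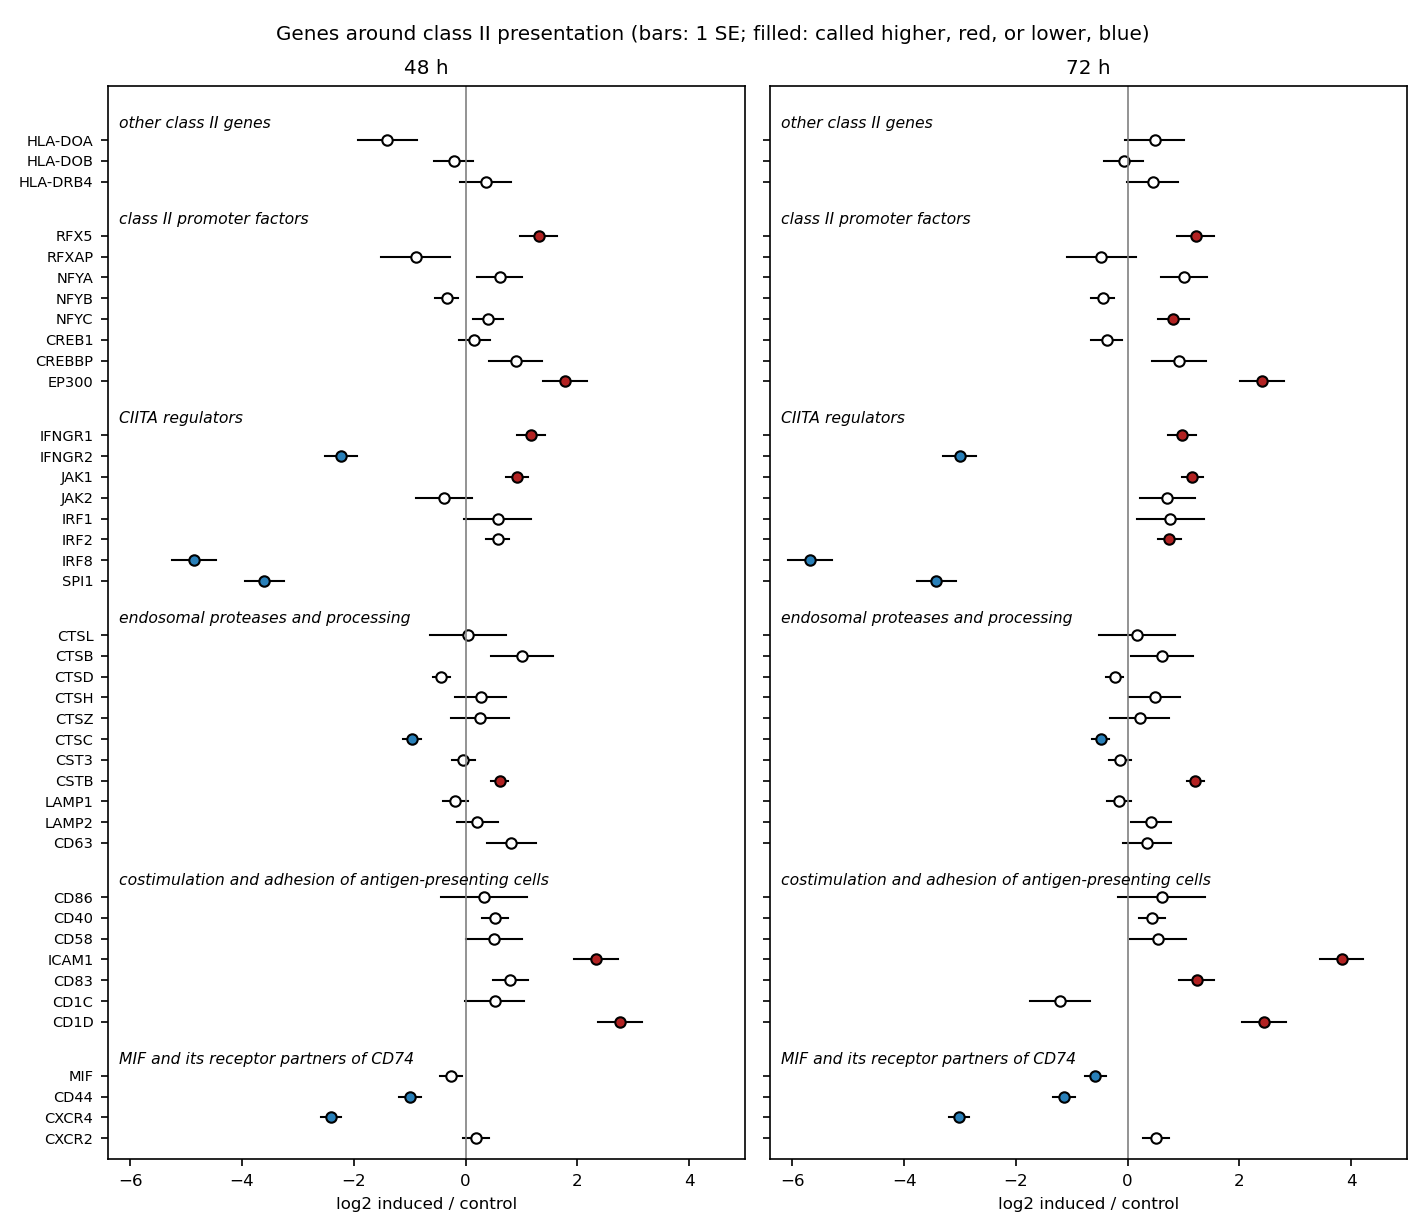
Log2 difference between induced and control cells (x axis) at 48 h and at 72 h for the 41 tested genes of 6 lists around class II presentation (rows, grouped by list), with bars for 1 SE and points filled red where called higher and blue where called lower. Promoter factors RFX5 and EP300 are to the right at both times, and IRF8, SPI1, IFNGR2, CD44 and CXCR4 to the left.

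The probe sets most like HLA-DPA1 over the 16 arrays, by Pearson's correlation of log2 values, were those of NFKB2 (r = 0.987), an NF-kB subunit, SERPINI1 (r = 0.986), the protease inhibitor neuroserpin, and CDKN1A (r = 0.984), the cell cycle inhibitor p21. They share with it a large number of arrays at the floor, 12, 11 and 12 of 16 against 10 for HLA-DPA1, so the likeness rests on few arrays. NFKB2 averaged 1188 in induced cells at 48 h, against -178 in controls, and 2543 at 72 h, against 91.0. Both controls of 72 h were under the floor for NFKB2, SERPINI1 and CDKN1A, so their log2 differences at 72 h were at least 4.23, 2.59 and 4.70.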

How the data were processed

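The deposited intensity values, 1 per probe set and array, are on a linear scale and the authors scaled each array by a factor that the labels list. The program that summarised probes into probe sets was not given in the sources used here. All 16 arrays had the same mean intensity, their medians lay between 220.3 and 337.5, and 25.8% of values were below 0. RNA was extracted with TRIzol, per the labels' protocols. Symbols came from the platform annotation, which can be old. The 67 control probe sets were left out. A model with 1 mean per group was fitted with limma 3.58.1 in R 4.3.3 to log2 of floored values, with a mean-variance trend, 8 residual degrees of freedom and two-sided tests, with Benjamini-Hochberg adjustment over 7824 probe sets. The number of arrays, 2 in each group, limits the precision. Folds come from fitted log2 means, and "at least" marks arrays at the floor on the lower side alone. The model was tested on simulated data with independent noise and changes in 1 group alone. That setting differs from these data, so the test is no support for the calls given here. Named genes are the members, RUNX1T1, called or listed genes of the 6 lists, and the 3 probe sets most like a called member. Members, lists and settings were chosen with earlier results of these data known. Alternatives were the floor, an asinh scale, the filter, 2 normalizations, no trend, a replicate block, other controls, fewer arrays and each array left out.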

Additional observations from a re-analysis of the deposited data

Results flagged for a closer look

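The effect of induction on HLA-DPA1 differed between the 3 times at which induced and control cells were both taken (F test adjusted p = 0.00875): the log2 difference was -0.35 at 24 h, 1.53 at 48 h and 1.97 at 72 h. No group held enough arrays for a test of single outlying arrays.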

How the results depend on the processing

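With 2 arrays per group and 10 of 16 HLA-DPA1 values at the floor, its fold is bounded and not measured. On floored values its SE and p-values, that of the F test included, leave out the spread of arrays under the floor. HLA-DPA1 kept its call at 48 and 72 h under the alternatives run except the stricter filter, which left it untested and gave 0 called members at 48 h, 72 h, in the average and between times, and the asinh scale, which gave 0 called members at 72 h (difference 2.41 on that scale) and 0 between times (3.05); the cause was not tested. At 72 h, 2 members were called after median scaling, with the 4 arrays of 72 h alone (both adding CD74) and against controls of 0 h (adding the HLA-DRB probe set, also 2 in the average, log2 -0.55). Leaving out 1 array gave 1 to 2 called members at 72 h, 0 to 1 at 12 h, and left the other counts of called members as they were. Over the whole array, calls ranged from 854 to 1560 at 48 h, against 1499 with every array, and from 80 to 324 at 12 h, against 257, when 1 array was left out. They ranged from 463 to 883 between times, against 854, from 0 to 1 at 24 h, against 0, and from 10 to 85, 0 to 10 and 2 to 8 in controls of 24, 48 and 72 h against 0 h, beside 39, 1 and 3. Median scaling gave 526 calls between times, 42 at 12 h, and 4 and 0 in controls of 24 and 48 h. With no filter there were 4 calls at 24 h and 169 at 12 h, and 25, 16 and 8 in the controls. With no trend there were 2 and 154, and 15, 6 and 5 in the controls. Set against controls of 0 h, 84 probe sets were called at 24 h, and the average gave 1366 in place of 2499. In controls of 48 and 72 h, the floor at the median gave 2 and 5 calls, the block gave 0 at 48 h and asinh 1 at 72 h.

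The replicate numbers were not taken to pair the arrays: deviations of same-numbered induced and control arrays correlated at 0.118, 0.00731 and -0.119 at 24, 48 and 72 h. Over all 28 pairs of groups these correlations ran from -0.152 to 0.25, with 23 above 0 and 7 above 0.1. The replicate block kept 1 called member at 48 h, at 72 h, in the average and between times, and 0 elsewhere (HLA-DPA1 at 72 h log2 1.97, adjusted p = 0.000583).

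Signs of uncalled differences turned as follows. With the floor at the median of all values, HLA-DPB1 was at log2 -0.21 at 24 h and -0.14 at 48 h, and the averages of HLA-DQB1 and HLA-DRA at 0.048 and 0.017. After quantile normalization HLA-DPB1 was at -0.16 at 48 h and HLA-DRA at -0.26 at 72 h. After median scaling CD74, HLA-DPB1 and HLA-DMB were at -0.16, -0.10 and -0.024 at 48 h and HLA-DRA at -0.29 at 72 h. Against controls of 0 h, CD74 and HLA-DMB were at -0.10 and -0.11 at 48 h, CD74 and HLA-DRA at 0.00488 and -0.16 at 72 h, and HLA-DMB at -0.14 in the average. On the asinh scale HLA-DQB1 was at -1.21 at 12 h. Leaving out 1 array gave these ranges that cross 0. At 24 h they were -0.49 to 0.029 (HLA-DRB), -0.55 to 1.23 (HLA-DPB1) and -0.50 to 0.11 (HLA-DMB). At 48 h they were -0.20 to 0.25 (CD74), -0.47 to 0.013 (HLA-DQB1), -0.016 to 0.55 (HLA-DRA), -0.43 to 0.58 (HLA-DPB1) and -0.00224 to 0.32 (HLA-DMB). At 72 h they were -0.12 to 1.30 (HLA-DQB1) and -0.28 to 0.39 (HLA-DRA), and in the average -0.43 to 0.044 (HLA-DQB1) and -0.20 to 0.039 (HLA-DRA). At 12 h they were -1.12 to 0.032 (CD74), -0.45 to 1.17 (HLA-DQB1), -0.34 to 0.90 (HLA-DPB1) and -0.46 to 0.00955 (HLA-DMB).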
